A study of Caenorhabditis elegans with 8 samples.

Results

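FMRFamide-like peptide (flp) genes of Caenorhabditis elegans were followed in RNA from sorted cells of skn-1gf(lax188) animals, in which the allele makes the stress regulator SKN-1 overactive, and of wild-type N2 animals. Every gene whose symbol is flp followed by a number was taken, which gave 31 of the 46928 genes counted. There were 4 libraries of skn-1gf and 4 of wild type, labelled as biological replicates. Animals of both genotypes were at the L4 larval stage, were grown at 20 °C on OP50 bacteria and carried daf-7p::gfp, a reporter driven by the promoter of a TGF-beta ligand gene that is active mainly in the ASI pair of sensory neurons. About 250000 animals were dissociated and the cells sorted, and the labels call the cell type neuron. The labels do not say which cultures the replicates came from, so p-values measure the spread between these libraries, which may be technical in part.

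Each flp gene encodes a precursor protein that is cut into short peptides ending in arginine and phenylalanine with an amidated carboxyl end. Neurons pack these peptides into dense-core vesicles and release them to act on G protein-coupled receptors of nearby and distant cells, where they tune movement, feeding, egg laying, sleep and fat use. Different neurons make different flp peptides, and a single neuron often makes several. FLP-1, released from AIY interneurons, is known to activate SKN-1 in the intestine, and FLP-7, released from ASI neurons, is known to control fat loss in the intestine.

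Wild-type replicate 2 stood apart from the other libraries. Ribosomal RNA took 32.8% of its gene counts, against 8.62 to 11.6% in the other wild-type libraries and 6.90 to 21.8% in skn-1gf. Its TMM scaling factor was 0.658, where the other 7 libraries had 0.877 to 1.30, and it lay at 202 on the first principal component (46.6% of the variance), where the others lay between −88.3 and 18.2. The main counts and medians of the flp genes are also given without it.

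Of the 31 genes, 30 passed the low-count filter and 1, flp-23, did not, with 1 count over all 8 libraries. No flp gene was called different between the genotypes by edgeR's quasi-likelihood test, in which the smallest adjusted p of a member was 0.999989. Over all 12734 genes tested, 0.0% were called at an adjusted p of 0.05 by the same test, so a count of 0 members is the background here. At an unadjusted p under 0.05 there were 0 members of 30, against 518 genes (4.07%) over the whole table, and DESeq2 called 3 genes of the whole table, none of them a member. The estimated log2 fold changes, skn-1gf over wild type, ran from −0.36 (flp-7) to 2.27 (flp-25). They were positive in 27 of 30 members with a median of 0.97, beside 53.7% positive and a median of 0.04 over all genes tested. Without wild-type replicate 2 they were positive in 28 of 30, with a median of 0.78. The members share the same 8 libraries and varied together from library to library, so the 30 estimates are not independent of each other.

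**Figure D1:**
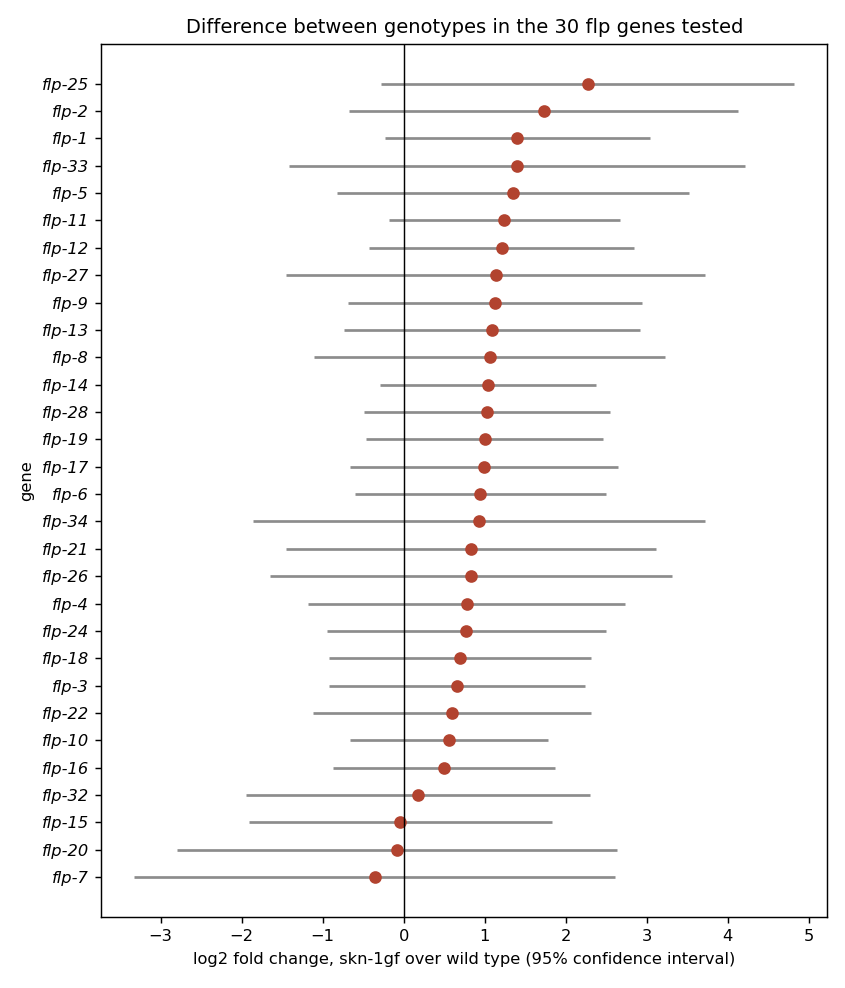
Points are the log2 fold change of each tested flp gene, skn-1gf over wild type, on the x axis, and lines are 95% confidence intervals from edgeR (4 libraries per genotype). The interval of every one of the 30 genes includes 0, and 27 points lie to the right of it.

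The 95% confidence interval of each of the 30 members included 0 and reached above a log2 fold change of 1, and in 18 of them it stayed above −1. A doubling thus lay within the interval of every tested member, and a halving lay outside that of 18. Intervals extended 1.22 to 2.97 log2 units to either side of the estimate, with a median of 1.82 among the members and 1.44 over all genes tested. Library depth ran from 2976889 to 9680840 gene counts in skn-1gf and from 5475892 to 10740970 in wild type. The flp genes together received 14888, 844, 4572 and 1462 counts in skn-1gf replicates 1 to 4, against 3526, 2955, 5388 and 3670 in wild-type replicates 1 to 4.

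That spread had a shared pattern. The summed level of the 31 genes, in CPM (counts relative to the TMM-scaled library size), was 1761, 114, 1334 and 547 CPM in skn-1gf replicates 1 to 4, against 375, 467, 765 and 297 CPM in wild-type replicates 1 to 4. The lowest and the highest of all 8 sums were both skn-1gf libraries, and the genotypes overlapped. Mean sums were 939 ± 745 CPM in skn-1gf and 476 ± 205 CPM in wild type (SD, n = 4 each). The difference of the mean log2 sums was 0.47, and it was −0.03 with skn-1gf replicate 1 left out, 1.28 with skn-1gf replicate 2 left out, and 0.49 without wild-type replicate 2. As a share of protein-coding counts, the family took 0.194, 0.0142, 0.155 and 0.0648% in skn-1gf, against 0.0517, 0.0486, 0.112 and 0.0383% in wild type.

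**Figure D2:**
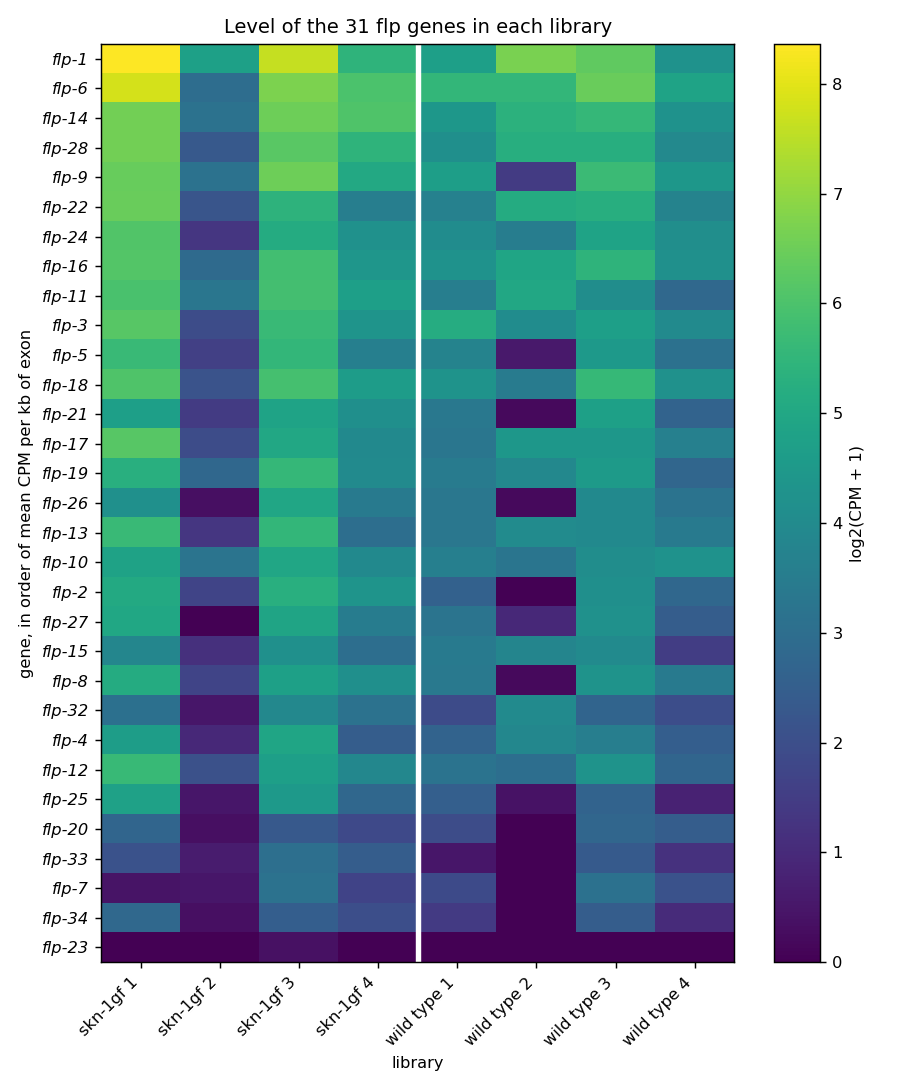
Each cell is the level of 1 flp gene (rows, in order of mean CPM per kb of exon) in 1 library (columns, skn-1gf on the left of the white line and wild type on the right), as log2(CPM + 1). The column of skn-1gf replicate 2 is dark for nearly all genes, the columns of skn-1gf replicates 1 and 3 are bright, and wild-type replicate 2 holds both bright cells such as flp-1 and cells at 0 such as flp-2.

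Among the 30 tested members, replicates 1 and 3 of skn-1gf both lay above all wild-type libraries in 24. Replicate 2 of skn-1gf was the lowest of its genotype in 29 and lay below every wild-type library in 16. No member had its 2 genotypes fully apart, against 276 genes (2.17%) over all genes tested. Within wild type, replicate 3 was the highest in 23 members. The counts of 24, 29, 16 and 23 were not taken over all genes tested. Whether they are particular to the flp genes was therefore not tested. In bulk libraries, fewer cells of a type and less RNA per cell cannot be told apart.

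With skn-1gf replicate 2 left out, 11 members had an unadjusted p under 0.05 in edgeR, where 7.1% of all genes did, and all 11 had the higher mean in skn-1gf. Without both libraries numbered 2 there were 15 such members, again all higher in skn-1gf, where 11.7% of all genes passed. The smallest adjusted p of a member was 0.651 and 0.234 in these 2 settings of edgeR, so none was called. With the replicate number as a block 4 members had such a p (5.33% of all genes), and without a low-count filter 8 did (6.07% of all genes), all with the higher mean in skn-1gf. With each of the other 7 libraries left out in turn, the count was 0 or 1 of 30 (2.33 to 5.46% of all genes), and it was 0 with limma-voom, with each of the other scalings and with the pan-neuronal covariate described below. Leaving out skn-1gf replicate 2, the lowest of its genotype in 29 members, raises the skn-1gf mean of those members by construction. Without both libraries numbered 2 the wild-type mean moved as well, up in flp-2 and flp-9 and down in flp-1 and flp-11. The shared direction of the 11 and of the 15 is not taken as support for a difference.

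Markers of neurons and of other tissues also varied between the libraries. The gene that drives the sort reporter, daf-7, was at 36.1, 1.62, 34.1 and 9.36 CPM in skn-1gf replicates 1 to 4, against 7.98, 0.474, 7.52 and 2.27 CPM in wild-type replicates 1 to 4, and in each genotype the libraries numbered 2 were lowest. The 8 ASI markers summed to 10.8 to 168 CPM in skn-1gf and 10.3 to 25.1 CPM in wild type. All 4 that passed the low-count filter had positive log2 fold changes (median 2.27), 2 of them with an unadjusted p under 0.05 in edgeR, and none was called. Of these, srbc-64 was at 0 in all libraries, str-3 at 0 in all skn-1gf libraries and str-2 at 0 in all wild-type libraries. The 20 pan-neuronal markers, of which 14 had positive and 6 negative log2 fold changes (median 0.21), summed to 1680, 750.1, 1741 and 1097 CPM in skn-1gf, against 964, 830.3, 2136 and 783 CPM in wild type. Muscle markers summed to 8275 to 34922 CPM in skn-1gf and 13227 to 26870 CPM in wild type, and intestine markers to 1414 to 17719 CPM in skn-1gf and 3714 to 15520 CPM in wild type, so RNA of other tissues was abundant and no flp level here can be assigned to ASI cells alone. Estimates were positive for 10 of 12 tested muscle markers (median log2 fold change 0.35) and 7 of 10 intestine markers (median 0.73). Pharynx markers summed to 65.2 to 2732 CPM in skn-1gf and 206 to 811 CPM in wild type, with positive estimates for 8 of 9 (median 0.95, close to that of the flp genes). Sperm markers summed to 26.6 to 278 CPM in skn-1gf and 107 to 985 CPM in wild type, with negative estimates for 10 of 10 (median −1.72), 4 of them with an unadjusted p under 0.05 in edgeR, and msd-2 was at 0 in all libraries. Epidermis markers summed to 269 to 1092 CPM in skn-1gf and 608 to 2078 CPM in wild type, with negative estimates for 8 of 10 (median −0.53). Estimates were positive for 13 of 17 markers of ciliated sensory neurons (median 0.69), 5 of 5 glia markers (0.64), 3 of 3 coelomocyte markers (0.64) and 8 of 15 germline markers (0.02). In edgeR, 1 marker each of muscle, epidermis, glia and coelomocytes also had an unadjusted p under 0.05, where 4.07% of all genes did. The epidermis estimates reached −3.96. The genotypes were fully apart in 1 epidermis and 1 coelomocyte marker, against 2.17% of all genes tested. No marker of these lists was called. The gene skn-1 itself was at 307 ± 68.6 CPM in skn-1gf and 295 ± 107.7 CPM in wild type (SD, n = 4 each).

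Set against the pan-neuronal sum of the same library, the summed flp level was 1.05, 0.152, 0.766 and 0.499 in skn-1gf, against 0.389, 0.563, 0.358 and 0.379 in wild type. Wild-type libraries 1, 3 and 4 lay close to each other on this ratio, while the 4 skn-1gf libraries spanned both sides of the wild-type range. Mean ratios were 0.616 ± 0.382 in skn-1gf and 0.422 ± 0.0944 in wild type (SD, n = 4 each). When the mean log2 level of the pan-neuronal markers was added to the fit as a covariate, 18 members had a positive and 12 a negative estimate, and their median log2 fold change was 0.27. The ratio itself was highest in skn-1gf replicate 1 and lowest in skn-1gf replicate 2. The part of the other marker lists in the flp differences was not tested.

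**Figure D3:**
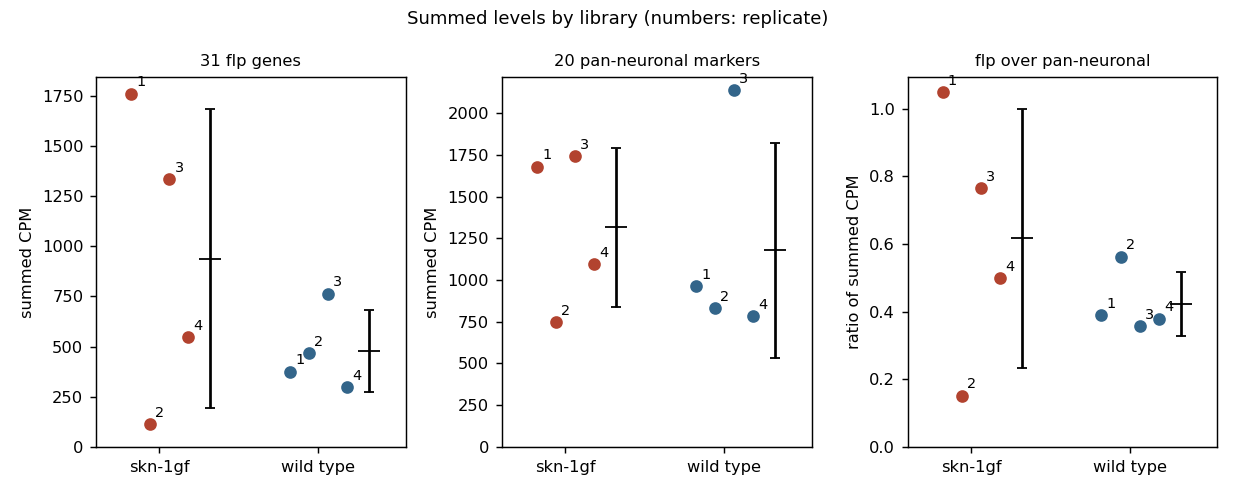
Points are libraries, numbered by replicate, with skn-1gf left and wild type right in each panel, and the bar beside each group is the mean ± SD of 4 libraries. The panels give the summed CPM of 31 flp genes, the summed CPM of 20 pan-neuronal markers, and the ratio of these sums; on the ratio, skn-1gf spans 0.152 to 1.05 and wild type 0.358 to 0.563.

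Levels were compared between genes per kilobase of exon, with exon lengths from an annotation of the assembly WBcel235. The order was headed by flp-1, at 215 ± 207 CPM per kb in skn-1gf and 81.6 ± 59.5 in wild type (SD, n = 4 each here and below). Next came flp-6, at 136 ± 126 CPM per kb in skn-1gf and 70.7 ± 34.3 in wild type, and flp-14, at 136 ± 84.4 in skn-1gf and 66.0 ± 30.03 in wild type. The fourth in order, flp-28, was at 97.4 ± 71.5 CPM per kb in skn-1gf and 47.85 ± 22.4 in wild type. The low end held flp-20, flp-33, flp-7 and flp-34, at 3.61 to 8.32 CPM per kb in skn-1gf and 2.55 to 6.55 in wild type, and then flp-23. The ranges over libraries of every one of the 30 neighbouring pairs overlapped within each genotype. Such ranges set different libraries against each other, so they do not tell whether neighbours differed within the same library. The level of flp-14 per kb was above that of flp-28 in every library. By contrast, flp-1 and flp-6 changed places between libraries, and so did flp-6 and flp-14. The other pairs were not compared library by library. Across the 31 genes the order was similar in both genotypes (Spearman's rho 0.908 over genes, which share libraries and are not independent).

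The gene that headed the order differed between libraries. Per kilobase, flp-1 was highest in skn-1gf replicates 1, 2 and 3 and in wild-type replicate 2, flp-14 in skn-1gf replicate 4, and flp-6 in wild-type replicates 1, 3 and 4. By counts, flp-1 took 18.6, 22.7, 14.6 and 7.73% of all flp counts in skn-1gf replicates 1 to 4, against 6.72, 21.8, 10.4 and 6.10% in wild-type replicates 1 to 4. The flp-6 share was steadier in wild type, at 12.7, 6.04, 7.74 and 11.4% in skn-1gf, against 12.2, 9.81, 11.4 and 9.35% in wild type. The 5 most counted genes of a library together held 41.5 to 51.5% of its flp counts in skn-1gf and 34.6 to 55.5% in wild type.

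**Figure D4:**
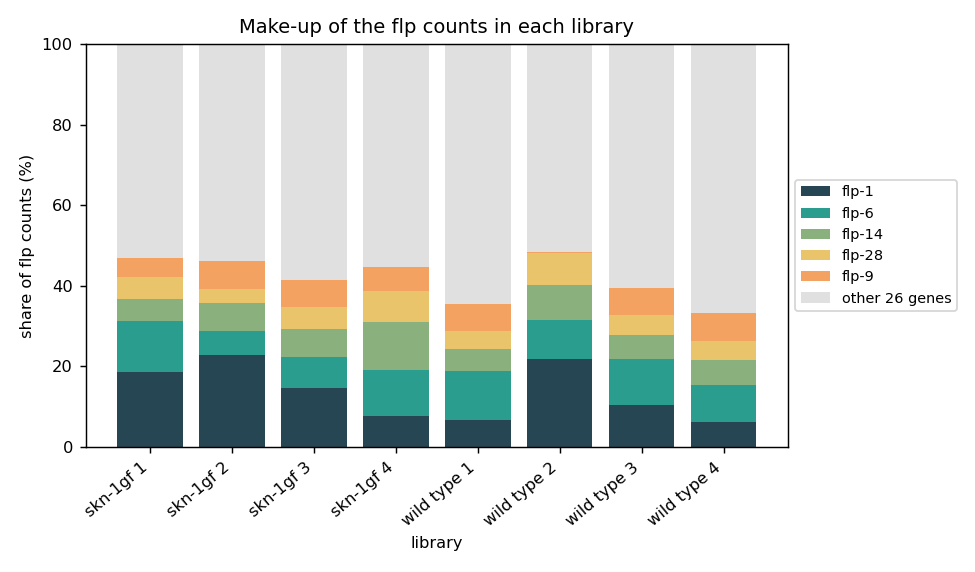
Bars give the share of all flp counts (y axis, %) taken by the 5 genes with the highest mean CPM per kb and by the other 26 genes in each library (x axis, skn-1gf left, wild type right). The flp-1 share ranges from 7.73 to 22.7% in skn-1gf and from 6.10 to 21.8% in wild type, and flp-9 is nearly missing from wild-type replicate 2.

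Peptides with known links to stress, fat and feeding are given first. The gene flp-1 (CELE_F23B2.5), whose peptides act in locomotion and in the intestinal oxidative stress response, was at 328, 25.9, 195 and 42.3 CPM in skn-1gf replicates 1 to 4, against 25.2, 102, 79.4 and 18.1 CPM in wild-type replicates 1 to 4. Replicates 1 and 3 of skn-1gf stood above all others, and the rest overlapped. The log2 fold change was 1.40 (SE 0.75, 95% interval −0.23 to 3.04). It was 0.67 without skn-1gf replicate 1 and 2.21 without both libraries numbered 2. Without a low-count filter its adjusted p in edgeR was 0.0572, the smallest of any member in any setting tried, where the range over settings reached 0.999989. That setting called 159 of 24642 genes, where the main fit called 0. The flp-1 estimate there was 1.36, near that of the main fit, with a smaller SE of 0.38.

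FLP-2 peptides promote arousal, and the intestine also secretes them. Levels of flp-2 (CELE_W07E11.3) were 33.1, 2.30, 37.6 and 19.1 CPM in skn-1gf, against 5.00, 0, 16.8 and 5.99 CPM in wild type. In the wild-type library at 0 counts, replicate 2, a count of 0 allows up to 0.474 CPM (3 counts, counting error only). All skn-1gf libraries other than replicate 2 lay above all wild-type ones, and the log2 fold change was 1.73 (SE 1.10, 95% interval −0.67 to 4.13).

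The ASI peptide gene flp-7 (CELE_F49E10.3), whose product acts through the receptor NPR-22, had a library order unlike that of most members. It was at 0.355, 0.405, 7.88 and 2.25 CPM in skn-1gf, against 2.66, 0, 7.67 and 3.32 CPM in wild type. Replicates 1 and 2 of skn-1gf had 3 counts each, so the order of these 2 values is not resolved. Replicate 1 had the highest level of 18 of the 31 genes. There flp-7 had 3 of 14888 flp counts (0.0202%, 95% Clopper-Pearson interval 0.00416 to 0.0589%), against 27 of 4572 in skn-1gf replicate 3 (0.591%, interval 0.390 to 0.858%) and 41 of 3670 in wild-type replicate 4 (1.12%, interval 0.803 to 1.51%). In skn-1gf replicate 2 the share was 3 of 844 (0.355%, interval 0.0734 to 1.04%). The flp-7 share in wild-type replicate 2 was 0 of 2955 (interval 0 to 0.125%), which overlaps that of skn-1gf replicate 1. Its log2 fold change of −0.36 (SE 1.36) turned to 0.40 without wild-type replicate 3 and was −1.87 without skn-1gf replicate 3.

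FLP-18 and FLP-21 peptides act on the neuropeptide Y-type receptors NPR-4, NPR-5 and NPR-1, and are known for roles in foraging, fat storage and aggregation. Levels of flp-18 (CELE_Y48D7A.2) were 66.1, 3.38, 59.2 and 23.6 CPM in skn-1gf, against 18.5, 10.1, 47.7 and 17.7 CPM in wild type (log2 fold change 0.70, SE 0.74, 95% interval −0.92 to 2.31). Levels of flp-21 (CELE_C26F1.10) were 25.2, 1.76, 28.01 and 16.8 CPM in skn-1gf, against 9.15, 0.158, 25.7 and 5.26 CPM in wild type (log2 fold change 0.83, SE 1.05, 95% interval −1.45 to 3.12). In both genes wild-type replicate 3 lay among the skn-1gf values, and the libraries numbered 2 were lowest in each genotype.

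Peptides of sleep and of gas and chemical sensing came next. The gene flp-11 (CELE_K02G10.4), whose peptides from the RIS neuron bring about sleep, was at 60.8, 8.78, 57.2 and 25.5 CPM in skn-1gf, against 10.9, 31.5, 16.04 and 6.15 CPM in wild type. Only wild-type replicate 2 and skn-1gf replicate 2 stood in the way of a full separation. Its log2 fold change was 1.24 (SE 0.65, 95% interval −0.18 to 2.66), and 2.12 without both libraries numbered 2. The sleep peptide genes of the ALA neuron had log2 fold changes of 1.09 (SE 0.84) for flp-13 and 0.77 (SE 0.79) for flp-24.

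The gene flp-6 (CELE_F07D3.2), made among others in the ASE taste neurons, was at 224, 6.89, 103 and 62.5 CPM in skn-1gf, against 45.9, 45.8, 86.9 and 27.8 CPM in wild type (log2 fold change 0.95, SE 0.71, 95% interval −0.60 to 2.49). Without skn-1gf replicate 1, the highest library, the log2 fold change was 0.15. The genes flp-10 and flp-17 encode the ligands of the egg-laying receptor EGL-6, and flp-17 is a product of the carbon dioxide-sensing BAG neurons. The level of flp-10 varied least among the libraries, from 8.38 to 30.1 CPM in skn-1gf and from 8.54 to 18.1 CPM in wild type, with a log2 fold change of 0.56 (SE 0.56), and that of flp-17 was 0.99 (SE 0.76).

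Several genes without a role given here had high or divergent levels. The largest estimate belonged to flp-25 (CELE_K04H4.7), at 26.4, 0.405, 21.6 and 5.99 CPM in skn-1gf, against 4.79, 0.316, 5.39 and 0.729 CPM in wild type (log2 fold change 2.27, SE 1.17, 95% interval −0.28 to 4.82, unadjusted p = 0.0763 in edgeR). In skn-1gf, replicates 1, 3 and 4 were above all wild-type libraries, and replicate 4 was so by less than 1 CPM. DESeq2 gave flp-25 an unadjusted p of 0.0380 and an adjusted p of 0.977.

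The gene flp-14 (CELE_Y37D8A.15) was at 95.6, 7.84, 90.7 and 65.1 CPM in skn-1gf, against 20.4, 40.6, 46.7 and 18.1 CPM in wild type (log2 fold change 1.04, SE 0.61, 95% interval −0.29 to 2.37). Here 3 skn-1gf libraries lay above all of wild type and replicate 2 below all of it. The same arrangement held in flp-28 (CELE_W07E11.4), at 93.8, 4.05, 73.2 and 41.9 CPM in skn-1gf, against 16.9, 36.7, 36.8 and 14.3 CPM in wild type (log2 fold change 1.03, SE 0.70). Levels of flp-12 (CELE_C05E11.8) were 48.4, 3.24, 25.4 and 13.5 CPM in skn-1gf, against 8.09, 7.11, 18.5 and 5.59 CPM in wild type (log2 fold change 1.21, SE 0.75). There wild-type replicate 3 lay between the skn-1gf values.

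The gene flp-9 (CELE_C36H8.3) was at 84.5, 7.84, 91.6 and 32.2 CPM in skn-1gf, against 25.0, 1.74, 51.2 and 20.7 CPM in wild type (log2 fold change 1.13, SE 0.83). Its lowest library was wild-type replicate 2, where it took 0.372% of flp counts against 4.80 to 6.98% in the other 7 libraries. By contrast, flp-22 (CELE_F39H2.1) had one of its higher wild-type values in that library, with 86.7, 3.65, 41.7 and 10.9 CPM in skn-1gf, against 11.7, 34.3, 36.8 and 12.5 CPM in wild type (log2 fold change 0.59, SE 0.79). Its mean in skn-1gf rested on replicate 1, without which the log2 fold change was −0.34. The gene flp-16 (CELE_F15D4.8) was at 68.6, 6.35, 56.6 and 19.8 CPM in skn-1gf, against 18.2, 29.1, 42.9 and 17.4 CPM in wild type (log2 fold change 0.50, SE 0.63, and 0.04 without skn-1gf replicate 1).

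Only 3 members had a negative estimate. Besides flp-7 these were flp-15 and flp-20. Levels of flp-15 (CELE_ZK525.1) were 13.4, 1.22, 17.2 and 7.11 CPM in skn-1gf, against 10.001, 12.96, 15.2 and 1.86 CPM in wild type (log2 fold change −0.04, SE 0.86, and 0.33 without skn-1gf replicate 2). The gene flp-20 (CELE_E01H11.3), expressed in touch receptor neurons, was at 5.56, 0.270, 4.08 and 2.62 CPM in skn-1gf, against 2.87, 0, 5.82 and 4.53 CPM in wild type (log2 fold change −0.08, SE 1.25, and 0.32 without wild-type replicate 3). In both genes the genotypes overlapped over most of their range. The 13 tested members not named by the rule had log2 fold changes of 0.18 (flp-32) to 1.40 (flp-33), with unadjusted p-values of 0.161 to 0.855 in edgeR.

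Wild-type replicate 2, the library with the most ribosomal RNA, also differed in which flp genes it held. It had 0 counts of 6 members, flp-2, flp-7, flp-20, flp-23, flp-33 and flp-34, where the other 7 libraries lacked at most 2. It had 1 count each of flp-8, flp-21 and flp-26, but 643 counts of flp-1, 257 of flp-14 and 232 of flp-28. This library had counts in 11909 genes, the fewest of the 8, and the highest level of flp-32, at 15.02 CPM against 2.77 to 5.54 CPM in the other wild-type libraries. In skn-1gf replicate 2, flp-23 and flp-27 had 0 counts.

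In genome position, 13 of the 31 members lie on the X chromosome (41.9%), beside 13.7% of all protein-coding genes, per the RefSeq and Ensembl annotations of WBcel235. The median log2 fold change was 1.00 for tested members on X and 0.95 for those on other chromosomes. Among them, flp-28, flp-3 and flp-2 are direct neighbours on the same strand. In skn-1gf all 3 were high in replicates 1 and 3 and lowest in replicate 2, while in wild type their order across libraries differed. In wild-type replicate 2, flp-28 was at 36.7 CPM, flp-3 at 15.6 CPM and flp-2 at 0. In wild-type replicate 1 flp-3 had its highest wild-type value, with levels of flp-3 (CELE_W07E11.2) of 72.9, 2.84, 50.2 and 19.1 CPM in skn-1gf, against 35.5, 15.6, 25.6 and 15.1 CPM in wild type (log2 fold change 0.66, SE 0.73). Exons of other annotated genes overlapped at most 2.94% of the exon length of a member (flp-8), and 25 members had no such overlap.

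The enzymes that turn precursors into peptides are given by a list of 11 genes, all of which were tested. None was called, estimates were positive for 9 and negative for 2, and the median log2 fold change was 0.52. The smallest p belonged to egl-21, which encodes a carboxypeptidase E that trims the cut peptides, at 213, 12.02, 222 and 73.7 CPM in skn-1gf, against 50.003, 26.7, 129.8 and 28.9 CPM in wild type (log2 fold change 1.15, SE 0.73). Log2 fold changes were 0.97 (SE 0.77) for pgal-1, a lyase of the amidation step, 0.81 (SE 0.65) for sbt-1, a chaperone of the proprotein convertase EGL-3, and 1.27 (SE 1.06) for cpd-2, a carboxypeptidase gene. The library order of the flp genes, skn-1gf replicates 1 and 3 high and replicate 2 low, was present in egl-21, pgal-1, sbt-1 and cpd-2. It was not particular to peptide genes. Muscle markers summed to 34922, 8275, 33036 and 24178 CPM in skn-1gf replicates 1 to 4, and pharynx markers to 717, 65.2, 2732 and 306 CPM. Intestine, epidermis, glia and pan-neuronal sums were also lowest of skn-1gf in replicate 2. Germline and coelomocyte sums were highest there. Relative to the summed processing genes the summed flp level was 1.31, 0.355, 0.885 and 0.820 in skn-1gf, against 0.641, 0.694, 0.743 and 0.652 in wild type.

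Of 11 genes for making and releasing dense-core vesicles, estimates were positive for 7 and negative for 4 (median log2 fold change 0.03), and none was called. The vesicle membrane protein gene ida-1 was at 151 ± 118.6 CPM in skn-1gf and 110.1 ± 106 CPM in wild type (log2 fold change 0.46, SE 0.76). For unc-108, the gene of the small GTPase RAB-2, the levels were 139 ± 43.3 CPM in skn-1gf and 126 ± 26.3 CPM in wild type (log2 fold change 0.14, SE 0.30). The vesicle maturation genes tbc-8 and cccp-1 had log2 fold changes of −0.54 (SE 0.73 and 0.84), which turned to 0.29 for tbc-8 without both libraries numbered 2 and to 0.48 for cccp-1 without wild-type replicate 3.

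Receptors of the RFamide type formed a list of 45 genes, of which 27 passed the low-count filter. None was called, and estimates were positive for 18 and negative for 9 (median log2 fold change 0.37). The FLP-10 and FLP-17 receptor gene egl-6 was at 9.47, 9.32, 12.5 and 5.24 CPM in skn-1gf, against 5.75, 5.22, 6.53 and 4.21 CPM in wild type (log2 fold change 0.75, SE 0.67), and its skn-1gf replicate 2 was not low. The receptor genes frpr-11, frpr-21 and dmsr-2 had log2 fold changes of −1.80 (SE 1.26), −1.66 (SE 1.26) and 1.21 (SE 0.95). That of frpr-11 rested on wild-type replicate 2 (17.9 CPM, against 1.05 to 2.34 CPM in the other wild-type libraries) and was 0.075 without it.

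Neprilysin peptidases, a family of membrane enzymes known to cut neuropeptides, numbered 26 genes with 17 tested. Log2 fold changes were positive in 8 and negative in 9, with a median of −0.18, and none was called. The smallest p-values all stood beside lower means in skn-1gf. The level of nep-23 was 1.65 ± 1.46 CPM in skn-1gf and 9.12 ± 9.05 CPM in wild type (log2 fold change −2.39, SE 1.03), and log2 fold changes were −2.05 (SE 1.07) for nep-8, −2.33 (SE 1.29) for nep-18 and −2.10 (SE 1.22) for nep-13. All 4 had their highest value in wild-type replicate 2, without which the log2 fold changes were −1.44 for nep-23 and −0.86 for nep-18.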

How the data were processed

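The deposited files, 1 for each library, hold the authors' raw read counts by gene. Tools listed in the submitters' processing notes are HTSeq 2.0.2, STAR 2.7.6a, R 3.5.2 and DESeq2, with ce10 as build, and annotation, strand setting and handling of duplicates are not stated. RefSeq symbols were found for 46919 of 46928 locus tags. Exon lengths and overlaps came from Ensembl's WBcel235 annotation, no coordinates were used, and sequences are not shown here. Summary lines were left out of library sizes (2.76 to 14.4% of uniquely aligned reads without a feature, 1.48 to 2.62% ambiguous), and ribosomal RNA took 6.90 to 32.8% of gene counts.

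The test was edgeR's (4.0.16, R 4.3.3) glmQLFit and glmQLFTest on genotype alone, after filterByExpr (minimum count 10) and TMM scaling, with Benjamini-Hochberg adjustment over the 12734 genes kept. The code was tested on simulated data with less spread between libraries than here, so that test does not tell which changes could be found in these libraries. Alternatives used DESeq2 1.42.0, limma 3.58.1, other scalings and filters, and fewer libraries. Intervals of shares cover counting error only.

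Values per library are given for the 10 members with the highest mean CPM, up to 5 with the smallest p in each direction, and flp-1, flp-2, flp-7, flp-18 and flp-21. Of each pathway list, the 4 genes with the smallest p are named, and other members where a count or range needs them. Members and lists were chosen with earlier results of these data known.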

Additional observations from a re-analysis of the deposited data

Results flagged for a closer look

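The ratio of the summed flp level to the summed pan-neuronal level was 0.563 in wild-type replicate 2, against 0.358 to 0.389 in the other 3 wild-type libraries. It is given here because its distance to the nearest library took 0.848 of the range of the 4, above the 95% limit of Dixon's test. It was the only one of 40 groups of 4 examined (17 flp genes, daf-7, the summed flp level and this ratio, in each genotype), where chance marks about 1 in 20. The median log2 fold change of the flp genes and the difference of log2 sums without this library are given above. Why the ratio was higher there was not tested.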

How the results depend on the processing

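No flp gene was called in any of the settings tried, which include each library left out. Over all genes, edgeR called 0 with each of the single libraries left out (0 to 0), DESeq2 called 3 and edgeR without a low-count filter called 159. The median log2 fold change of the flp genes (0.97) was 0.36 with limma-voom, 0.65 with total-count scaling, which moved the median of all genes to −0.12, and 0.54 to 1.33 with single libraries left out. The difference of log2 sums ran from −0.03 to 1.28 with single libraries left out. The replicate number as a block gave a median of 0.64, 0 flp genes called and 4 at an unadjusted p under 0.05 in edgeR. The deviations of same-numbered libraries correlated at 0.513 for number 3, the highest of all 16 pairs, but at −0.014, 0.064 and 0.059 for numbers 1, 2 and 4, so the numbers were not taken to pair the samples, and not every library correlated best with its own number.

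Estimates of named genes that changed sign were, with the pan-neuronal covariate, flp-22 (−0.19), flp-16 (−0.13), flp-3 (−0.32), flp-18 (−0.073) and ida-1 (−0.21); with limma-voom, flp-3 (−0.12) and flp-20 (0.19); with the block, flp-22 (−0.038) and flp-20 (0.29); without both libraries numbered 2, flp-15 (0.49) and tbc-8 (0.29); and with total-count scaling, unc-108 (−0.040) and skn-1 (−0.012). With single libraries left out, ranges that crossed 0 were −0.34 to 0.97 for flp-22, −0.49 to 0.33 for flp-15, −0.55 to 0.32 for flp-20, −1.87 to 0.40 for flp-7, −0.90 to 0.48 for cccp-1, −0.013 to 0.30 for unc-108, −2.19 to 0.075 for frpr-11 and −0.081 to 0.31 for skn-1. The cause was not tested.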
